A study of Mus musculus with 12 samples.

Results

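Gadd45a, Gadd45b and Gadd45g encode the 3 Gadd45 proteins, small acidic stress sensors that are present mostly in the nucleus and have no enzymatic activity of their own. The deposited tables hold all 3 genes among 54022, and each was among the 16222 genes with enough counts to be tested. The members were chosen by gene name, and the family was selected on the response to glucose, in which Gadd45g had the largest fall among the genes named earlier for these data. Values for high against low glucose are therefore given for the members as a description without a test, and tests are given for TMAO and for its interaction with glucose. These tests use the same libraries as the glucose values behind the choice, and the interaction is the difference between the 2 glucose responses, so they are not independent of it.

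Gadd45 genes are induced in most tissues by DNA damage, nutrient stress, cytokines or differentiation signals, and their proteins act by binding others. All 3 proteins bind and activate the kinase MEKK4 (Map3k4), which feeds the p38 and JNK cascades, and they bind PCNA, the cell cycle inhibitor p21 (Cdkn1a) and the CDK1-cyclin B1 complex that drives entry into mitosis. They have also been tied to active DNA demethylation through thymine DNA glycosylase (Tdg). Gadd45a is a classical target of p53, Gadd45b is induced by NF-kB and TGF-beta, and Gadd45g is a cytokine-responsive gene.

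RNA came from MIN6 cells, an insulin-secreting mouse insulinoma line labelled wild type, given 100 nM TMAO (trimethylamine N-oxide, a gut microbe-derived metabolite) or vehicle for 18 h and then, after a fast, low (2.8 mM) or high (16.8 mM) glucose. There were 3 libraries in each of the 4 conditions (low glucose vehicle, low glucose TMAO, high glucose vehicle and high glucose TMAO), described as biological replicates, and the length of the glucose stimulus before RNA was taken is not given in the sources used here. All cultures were of a single proliferating line, so the p-values cover the spread between its cultures. Between 16793162 and 22340542 fragments per library were assigned to genes. All 8 beta cell markers looked up were expressed, with Ins2 between 22781 and 27445 FPKM (fragments scaled to gene length and library total) and Slc2a2, the glucose transporter of beta cells, between 62.6 and 72.6 FPKM. The alpha cell hormone Gcg was present at 199.6 to 227.4 FPKM, Sst at 0.535 to 2.11 FPKM, and Krt19 and Ptprc, which mark ductal and blood cells, had 0 counts in all libraries. Other non-endocrine markers were detected in every library, Cela1 at 0.680 to 1.49 FPKM and Col1a1 at 0.226 to 0.521 FPKM. Pecam1 had 0.00857 to 0.131 FPKM and Cpa1 had 0 to 0.0306 FPKM.

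The 3 genes are short and built alike, with 4 exons each in the first coding transcript of GENCODE M21 and coding sequences of 165 codons for Gadd45a, 160 for Gadd45b and 159 for Gadd45g. Gadd45a (ENSMUSG00000036390) is transcribed from the minus strand at chr6:67035096-67037457. Gadd45b (ENSMUSG00000015312) is transcribed from the plus strand at chr10:80930073-80932204, and Gadd45g (ENSMUSG00000021453) from the plus strand at chr13:51846678-51848468. These are the coordinates of the tables on mm10 (GRCm38), and GENCODE M21 gives the same ones. The members thus share neither a chromosome nor a neighbour.

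The promoters are shown because Gadd45a and Gadd45g, the abundant members, went in opposite directions with glucose. Each sequence is from RefSeq on GRCm38.p6, read 5′ to 3′ along the gene from 250 bases before to 50 bases after the start of transcription. The start in these windows lies inside the gene bounds given above for Gadd45a and Gadd45b, so distances from those bounds would differ. Capitals mark 4 motifs searched on both strands: the E-box CACGTG, the octamer ATTTGCAT, the CCAAT box and the TATA box TATAAA. The motifs were chosen after the sequences had been seen.
Gadd45a, chr6:67037358-67037657, minus strand: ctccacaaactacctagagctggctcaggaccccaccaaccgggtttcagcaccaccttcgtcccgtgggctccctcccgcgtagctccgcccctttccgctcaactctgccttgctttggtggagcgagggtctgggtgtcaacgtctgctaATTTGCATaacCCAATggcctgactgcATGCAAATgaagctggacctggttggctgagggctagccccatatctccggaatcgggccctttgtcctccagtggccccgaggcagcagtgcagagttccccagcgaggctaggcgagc
Gadd45b, chr10:80929841-80930140, plus strand: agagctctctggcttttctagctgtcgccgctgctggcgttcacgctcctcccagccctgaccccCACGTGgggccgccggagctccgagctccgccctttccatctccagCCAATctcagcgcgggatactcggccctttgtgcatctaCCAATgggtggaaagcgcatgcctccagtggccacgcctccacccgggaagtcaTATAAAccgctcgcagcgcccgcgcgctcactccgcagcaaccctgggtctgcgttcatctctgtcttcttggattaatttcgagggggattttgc
Gadd45g, chr13:51846425-51846724, plus strand: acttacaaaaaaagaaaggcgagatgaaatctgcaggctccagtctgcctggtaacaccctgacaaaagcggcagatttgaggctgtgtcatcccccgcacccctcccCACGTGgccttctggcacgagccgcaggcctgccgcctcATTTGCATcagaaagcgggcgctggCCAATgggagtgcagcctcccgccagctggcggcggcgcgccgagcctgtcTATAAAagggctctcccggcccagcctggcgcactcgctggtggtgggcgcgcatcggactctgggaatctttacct
The Gadd45a window held 2 octamers, the letters bound by POU factors such as Oct-1 (Pou2f1), of which 1 lay on each strand, beginning 97 and 70 bases before the start. The Gadd45g window held 1 octamer, 103 bases before the start, and the Gadd45b window held 0. An octamer was found in 1.74% of the 32851 promoter windows in the table. The E-box, the core recognised by USF, MYC and other basic helix-loop-helix factors, occurred once in Gadd45b (185 bases before the start) and once in Gadd45g (142 bases), against 7.15% of all windows, and 0 times in Gadd45a. The TATA box was likewise present in Gadd45b and Gadd45g and not matched in Gadd45a (13.6% of all windows), while each of the 3 windows held a CCAAT box (37.4%). Neither the cAMP response element TGACGTCA nor the forkhead core TGTTTAC was matched in the 3 windows (1.79% and 3.65% of all windows), and the GC box GGGCGG occurred once in Gadd45a and once in Gadd45b (35.7%). GC content was 61.0%, 62.0% and 62.3% for Gadd45a, Gadd45b and Gadd45g, against a median of 52.7% over all windows. A match describes the letters only and is no evidence of binding in these cells.

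Gadd45a, the p53-responsive member, was about doubled in high glucose. In low glucose with vehicle its FPKM was 45.2, 44.4 and 44.4 in replicates 1 to 3, a mean of 44.6 ± 0.473 (SD, n = 3). In high glucose with vehicle it was 87.1, 79.7 and 97.2, a mean of 88.0 ± 8.79 (SD, n = 3). All 3 high-glucose libraries lay far above all 3 low-glucose libraries, and the fitted log2 fold change was 0.98 with a standard error of 0.058, a 1.97-fold level. With TMAO, Gadd45a had 46.7, 44.9 and 48.9 FPKM in low glucose (46.8 ± 1.98, SD, n = 3) and 81.6, 80.7 and 87.4 in high glucose (83.3 ± 3.63, SD, n = 3). These groups did not overlap either, with a log2 fold change of 0.83 (standard error 0.057). Among 12309 tested genes with a mean of at least 50 counts, Gadd45a had the 47th largest rise with glucose in vehicle-treated cells and the 60th largest in TMAO-treated cells.

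Gadd45g, the member on which the family was selected, moved the other way. In low glucose with vehicle its FPKM was 60.9, 54.4 and 57.2 (57.5 ± 3.29, SD, n = 3), and in high glucose with vehicle it was 27.4, 24.2 and 24.4 (25.3 ± 1.81, SD, n = 3). No library of either glucose level reached the range of the other. The log2 fold change was -1.18 (standard error 0.076), a level of 0.441 times that in low glucose. With TMAO the FPKM was 52.4, 45.5 and 54.8 in low glucose (50.9 ± 4.85, SD, n = 3) and 24.5, 26.2 and 21.6 in high glucose (24.1 ± 2.33, SD, n = 3), a log2 fold change of -1.07 (standard error 0.077). These 2 groups did not overlap either. The next falls under the earlier naming rule were those of Smad6 (-0.87) with vehicle and Tuba8 (-0.76) with TMAO. Without that rule's demands on separation and adjusted p, Gadd45g had the 4th largest fall with vehicle and the 3rd largest with TMAO among the same 12309 genes.

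Gadd45b, the NF-kB-responsive member, was scarce in every condition, with 73 to 119 counts per library against 1460 to 3193 for Gadd45a and 433 to 1360 for Gadd45g. Its FPKM in vehicle-treated cells was 3.90, 3.75 and 3.64 in low glucose (3.77 ± 0.131, SD, n = 3) and 3.63, 3.42 and 2.69 in high glucose (3.25 ± 0.493, SD, n = 3). The groups barely missed each other, at 3.64 for the lowest low-glucose and 3.63 for the highest high-glucose library. With TMAO it was 3.60, 3.84 and 2.89 in low glucose (3.44 ± 0.493, SD, n = 3) and 3.11, 2.69 and 3.53 in high glucose (3.11 ± 0.417, SD, n = 3), and the groups overlapped. The log2 fold changes were -0.21 (standard error 0.15) with vehicle and -0.16 (standard error 0.15) with TMAO.

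**Figure D1:**
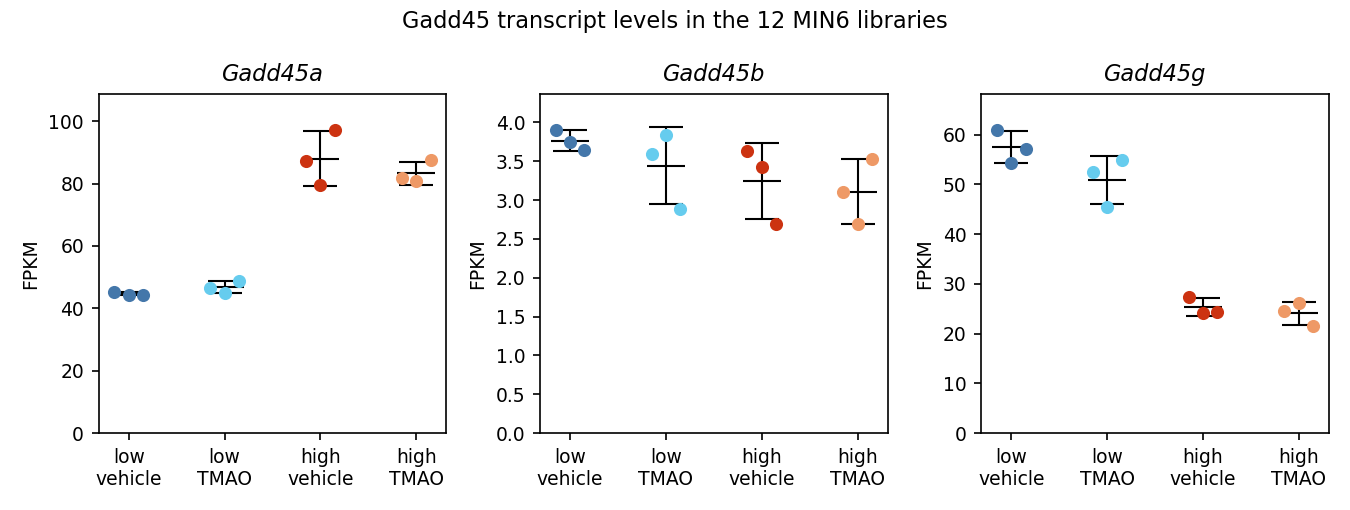
FPKM (vertical axes, starting at 0 and scaled for each gene) of Gadd45a, Gadd45b and Gadd45g in the 4 conditions, low or high glucose with vehicle or TMAO. Points are the 3 libraries of a condition, and black bars are the mean ± SD. Gadd45a sits near 45 FPKM in low glucose and between 79.7 and 97.2 in high glucose, Gadd45g falls from between 45.5 and 60.9 to between 21.6 and 27.4, and Gadd45b stays below 4 FPKM.

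In vehicle-treated cells the groups of the 2 glucose levels did not overlap for 3 of the 3 members, and in TMAO-treated cells for 2 of 3. Over all tested genes, FPKM ranges did not overlap for 18.9% with vehicle and 18.6% with TMAO, and 3.3% were called for glucose at an adjusted p under 0.05 with vehicle and 3.64% with TMAO (quasi-likelihood test of edgeR, Benjamini-Hochberg adjustment). Since glucose was the basis of the choice, nothing is read from the members' count. The scaling between libraries sets the middle of all genes near 0, so the values are relative to it. In bulk RNA, a lower level per cell and fewer cells that express a gene cannot be told apart.

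In order of level, Gadd45a ran from high glucose vehicle (88.0 FPKM) through high glucose TMAO (83.3) and low glucose TMAO (46.8) to low glucose vehicle (44.6). The first and the last of these steps lay between groups that overlapped. The middle step of 36.4 FPKM, from high to low glucose, exceeded the larger SD of 3.63, and the last, of 2.18 FPKM, slightly exceeded the larger SD of 1.98. The order for Gadd45g was low glucose vehicle (57.5 FPKM), low glucose TMAO (50.9), high glucose vehicle (25.3) and high glucose TMAO (24.1). Here too the neighbours at the same glucose level overlapped, and the step of 25.6 FPKM between glucose levels exceeded the larger SD of 4.85. The step of 6.58 FPKM from low glucose vehicle to low glucose TMAO also exceeded that SD. For Gadd45b, in the order low glucose vehicle, low glucose TMAO, high glucose vehicle and high glucose TMAO, none of the 3 steps exceeded the larger SD of its groups, and all overlapped. Measured against other genes, Gadd45g had a higher FPKM than 94.6% of the tested genes in low glucose with vehicle and than 85.0% in high glucose with vehicle. For Gadd45a these shares were 92.5% and 96.9%, and for Gadd45b 42.9% and 40.0%.

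Per length, the opposite shifts exchanged the main member of the family, while the ranges of its summed FPKM in low and high glucose overlapped with vehicle. The sum over the 3 genes was 105.9 ± 3.81 in low glucose vehicle, 101.2 ± 6.30 in low glucose TMAO, 116.5 ± 8.60 in high glucose vehicle and 110.4 ± 1.81 in high glucose TMAO (FPKM, SD, n = 3). With TMAO the libraries of the 2 glucose levels did not overlap in this sum, at 94.3 to 106.6 and 109.2 to 112.5 FPKM. Gadd45g made up 54.3% ± 1.17 of the sum in low glucose vehicle and 21.8% ± 1.90 in high glucose vehicle, while Gadd45a went from 42.2% ± 1.11 to 75.4% ± 2.45 (SD, n = 3). With TMAO, the share of Gadd45g was 50.2% ± 1.74 in low and 21.8% ± 2.41 in high glucose, and that of Gadd45a 46.3% ± 1.19 and 75.4% ± 2.09 (SD, n = 3). Gadd45b held between 2.17% and 4.07% in all libraries.

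The ratio of Gadd45a to Gadd45g within a library does not depend on how libraries are scaled to each other. It was 0.742 to 0.816 in the low glucose vehicle libraries and 0.890 to 0.988 in the low glucose TMAO libraries. In high glucose it was 3.18 to 3.99 with vehicle and 3.09 to 4.06 with TMAO. By FPKM, Gadd45g was thus the higher in each of the 6 low-glucose libraries and Gadd45a in each of the 6 high-glucose libraries. The order in low glucose rests on the gene lengths behind FPKM (1764 bases for Gadd45a and 1173 for Gadd45g): before that scaling Gadd45a had more counts in all 12 libraries, with 1460 to 1615 against 1041 to 1360 in low glucose. Part of Gadd45a also overlaps another gene, described last. In low glucose the ratios with TMAO all lay above those with vehicle, and in high glucose the 2 treatments overlapped. The ratio was formed from members chosen with these data known, and it was not tested.

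**Figure D2:**
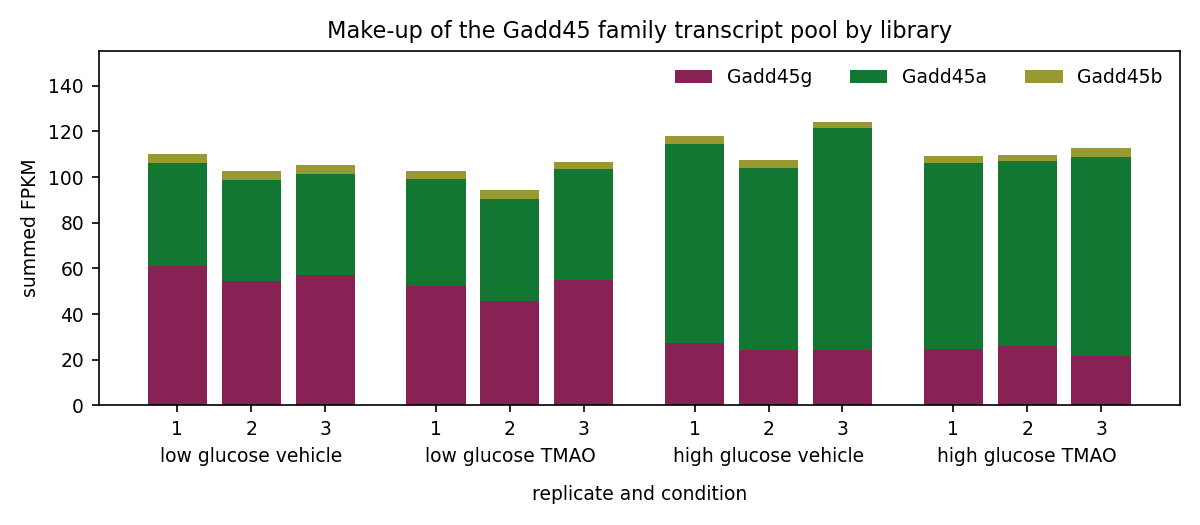
Summed FPKM (vertical axis, starting at 0) of the 3 Gadd45 genes in each library, with libraries by replicate number within the 4 conditions along the horizontal axis. Stacked colours are the FPKM of Gadd45g, Gadd45a and Gadd45b. The bars reach from 94.3 to 124.2, and Gadd45a takes over from Gadd45g as the largest part in the 6 high-glucose libraries.

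The comparison of TMAO with vehicle asked whether the metabolite changes the family at either glucose level, and none of the members was called. The calls over all tested genes were 1 (0.00616%) in low glucose and 0 (0%) in high glucose, and 0 (0%) for the interaction, which asks whether the effect of TMAO differs between glucose levels (edgeR). At an unadjusted p under 0.05, edgeR gave 357, 868 and 545 genes. DESeq2's Wald test called 1, 1 and 0 genes, and limma on log2(FPKM + 1) called 0, 0 and 0. Of the 9 tests of a member, 0 passed an adjusted p of 0.05 and 1 had an unadjusted p under 0.05.

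That value was for Gadd45g in low glucose, whose log2 fold change with TMAO was -0.18 (standard error 0.072, unadjusted p = 0.022 and adjusted p = 0.9999, edgeR). Its 95% confidence interval ran from -0.32 to -0.027, or 0.800 to 0.981 times the vehicle level. The lowest vehicle library (54.4 FPKM) was below the highest TMAO library (54.8 FPKM), so the groups overlapped. The low glucose vehicle libraries in this comparison are also those from which the fall of Gadd45g with glucose was measured. In high glucose the log2 fold change of Gadd45g was -0.068 (standard error 0.082, adjusted p = 0.953, edgeR), with an interval from -0.24 to 0.10. Its interaction was 0.11 (standard error 0.109, adjusted p = 0.9998, edgeR).

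Gadd45a had a log2 fold change with TMAO of 0.069 in low glucose (standard error 0.059, adjusted p = 0.9999) and of -0.079 in high glucose (standard error 0.056, adjusted p = 0.927, edgeR). The intervals allow a level between 0.965 and 1.14 times that with vehicle in low glucose, and between 0.874 and 1.02 times in high glucose. The interaction, -0.15 with a standard error of 0.081, had an unadjusted p of 0.0768 and an adjusted p of 0.9998 (edgeR). For Gadd45b, the log2 fold changes were -0.13 in low and -0.077 in high glucose (standard errors 0.149 and 0.155, adjusted p = 0.9999 and 0.983, edgeR), and the interaction was 0.051 (standard error 0.215, adjusted p = 0.9998, edgeR). At its counts the precision was low, and a change between 0.741 and 1.13 times in low glucose, or between 0.762 and 1.18 times in high glucose, lay within the intervals.

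**Figure D3:**
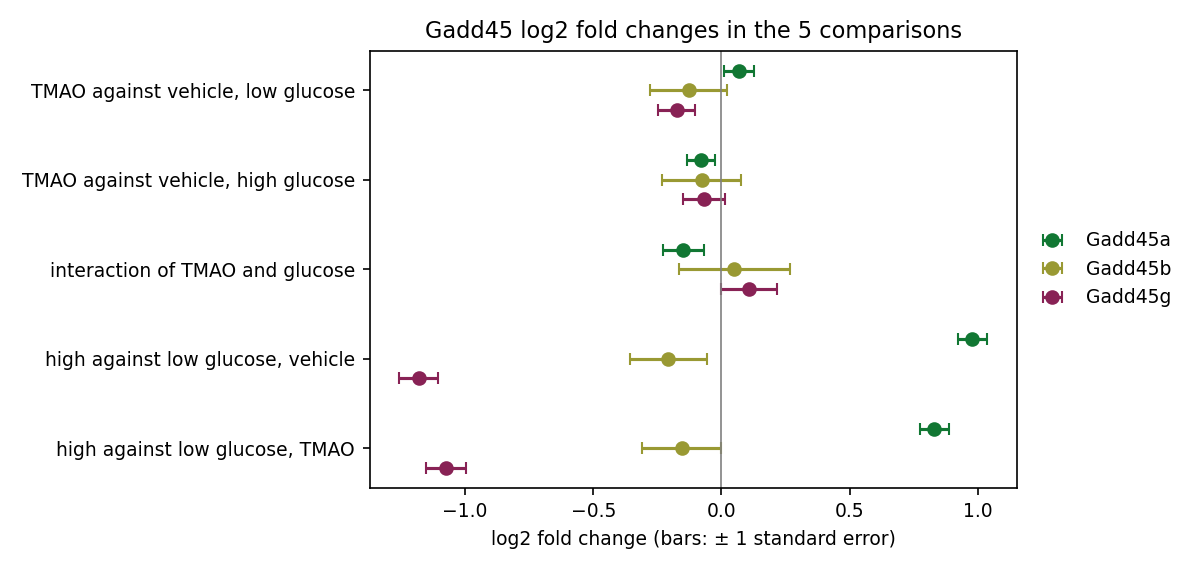
Log2 fold changes from edgeR (horizontal axis) of Gadd45a, Gadd45b and Gadd45g in the 5 comparisons (vertical axis), with bars of 1 standard error on each side. The values for TMAO and the interaction lie between -0.18 and 0.11, and with glucose Gadd45a and Gadd45g lie on opposite sides at 0.98 and -1.18 in vehicle-treated cells.

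Genes that act with the Gadd45 proteins were taken in 6 lists: binding partners, the p38 and JNK cascade, transcriptional regulators of Gadd45 genes, p53 target genes, DNA demethylation and base excision repair, and control of mitotic entry (G2/M) and growth arrest. They hold 115 different genes, of which 111 were tested. For high against low glucose, 11 of the 111 (9.91%) were called with vehicle, 5 higher and 6 lower, and 11 with TMAO, 6 higher and 5 lower, against 3.3% and 3.64% of all tested genes. The lists were chosen with earlier results of these data known. These shares and the listed genes' p-values for glucose are therefore not independent of the choice, and nothing is read from the shares. The median log2 fold change of the 111 genes was -0.0086 with vehicle. Of the 13 genes called with either treatment, 9 were called with both, and all 9 in the same direction.

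Most binding partners did not pass the test. Among 12 tested, 0 were called higher and 1 lower with glucose in vehicle-treated cells. This was Aurka, the mitotic kinase Aurora A, with 44.0 ± 2.21 FPKM in low and 36.3 ± 2.32 FPKM in high glucose (SD, n = 3). Its log2 fold change was -0.28 with vehicle (adjusted p = 0.00158) and -0.30 with TMAO (adjusted p = 0.000608, edgeR). The kinase Map3k4 had a log2 fold change of -0.087 (adjusted p = 0.684), Cdkn1a of 0.13 (adjusted p = 0.142), Pcna of 0.10 (adjusted p = 0.227), and Cdk1 of -0.062 (adjusted p = 0.739, edgeR). Gadd45gip1, a mitochondrial ribosome protein that binds Gadd45g, had -0.15 (adjusted p = 0.34, edgeR). In the p38 and JNK cascade, 1 of 22 genes was called with each treatment. This was Jun, an AP-1 subunit and the substrate for which JNK is named, which fell by 0.25 on the log2 scale with vehicle (adjusted p = 0.0282) and by 0.42 with TMAO (adjusted p = 6.88e-05, edgeR). The vehicle call of Jun was lost, leaving 0 in the list, without low glucose vehicle replicate 1 or 2 or high glucose vehicle replicate 2 or 3, and with limma at either pseudocount, and the TMAO count became 2 without low glucose TMAO replicate 2.

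Of 19 regulators of Gadd45 transcription, 2 were higher and 1 lower in high glucose with vehicle, and the same counts held with TMAO. Egr1, an immediate-early zinc finger factor, rose from 3.85 ± 0.207 to 23.2 ± 0.873 FPKM with vehicle (SD, n = 3), a log2 fold change of 2.59 (adjusted p = 1.06e-22), and its value with TMAO was 2.09 (adjusted p = 1.33e-20, edgeR). Cebpb, a basic leucine zipper factor, rose by 0.52 and 0.53 (adjusted p = 6.4e-05 and 5.61e-05, edgeR). Ddit3, the stress factor CHOP, fell by 0.18 and 0.19 on the log2 scale (adjusted p = 0.0297 and 0.0178, edgeR). Its vehicle call was lost, leaving 0 lower, when any 1 of the vehicle libraries other than high glucose vehicle replicate 3 was left out and with limma on log2(FPKM + 1). Its TMAO call was lost without high glucose TMAO replicate 2 or 3, and with vehicle 2 genes of the list were lower when all genes were kept or with only the 6 libraries of the comparison. Trp53 itself, which encodes p53, had a log2 fold change of 0.028 with vehicle (adjusted p = 0.882, edgeR).

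In the list of p53 targets, 24 of 27 genes were tested, with 2 higher and 1 lower in high glucose with either treatment. Btg2, an antiproliferative gene that is also an early-response gene, rose from 10.4 ± 0.537 to 17.9 ± 0.553 FPKM with vehicle (SD, n = 3), a log2 fold change of 0.78 with vehicle and 0.89 with TMAO (adjusted p = 1.39e-10 and 5.73e-12, edgeR). Plk3, a stress-responsive polo-like kinase, rose by 0.58 and 0.50 (adjusted p = 9.77e-11 and 2.84e-09, edgeR). The member called lower was Sesn1, a stress-induced inhibitor of mTORC1, with vehicle (-0.30, adjusted p = 0.00656), and its value with TMAO was -0.22 (adjusted p = 0.0643, edgeR). With TMAO it was Ppm1d, a phosphatase that dampens p53 (-0.22, adjusted p = 0.0111), with a vehicle value of -0.11 (adjusted p = 0.363, edgeR). With TMAO, 0 genes of the list were lower without high glucose TMAO replicate 3, and 2 without low glucose TMAO replicate 2. The median of the list was 0.042 with vehicle.

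Among 21 genes of DNA demethylation and repair, 1 was called with each treatment, both of them dioxygenases that oxidise methylcytosine. Tet1 fell with vehicle (-0.24, adjusted p = 0.034) and had -0.17 with TMAO (adjusted p = 0.199, edgeR). Tet2 rose with TMAO (0.29, adjusted p = 0.0268) and had 0.23 with vehicle (adjusted p = 0.0904, edgeR). With vehicle the count was 0 without low glucose vehicle replicate 2 or any 1 of the 3 high glucose vehicle libraries, and with limma at either pseudocount. It was 2 when all genes were kept, with a replicate block and with only the 6 libraries of the comparison. With TMAO it was 0 without low glucose TMAO replicate 1 or high glucose TMAO replicate 2 or 3 and with limma, and 2 and 3 without low glucose TMAO replicates 2 and 3, and 2 with a replicate block. Tdg had a log2 fold change of 0.054 with vehicle (adjusted p = 0.735, edgeR). Of 21 tested genes of mitotic entry and growth arrest, the mitotic kinase Plk1 fell (-0.19 and -0.26, adjusted p = 0.0391 and 0.00258) and the antiproliferative gene Btg1 rose (0.21 and 0.17, adjusted p = 0.00605 and 0.0298, edgeR). Their count of 2 fell to 0 with vehicle without low glucose vehicle replicate 2 or high glucose vehicle replicate 2, and to 1 without low glucose vehicle replicate 1 or high glucose vehicle replicate 3 and with limma. With TMAO it was 1 when any 1 of the 3 low glucose TMAO libraries was left out, without high glucose TMAO replicate 2 or 3, with limma, and with only the 6 libraries of the comparison.

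For TMAO, the call among the 111 genes was Egr1 in low glucose (log2 fold change 0.52, adjusted p = 0.00207), with 0 called in high glucose and 0 for the interaction (edgeR). Egr1 had 5.52 ± 0.52 FPKM in low glucose with TMAO against 3.85 ± 0.207 with vehicle (SD, n = 3), and its interaction had an adjusted p of 0.188 (edgeR). Egr1 was the gene called in that comparison over the whole table, and its call was lost without low glucose TMAO replicate 2 and with limma at either pseudocount. At an unadjusted p under 0.05 the numbers were 1, 13 and 3, or 0.901%, 11.7% and 2.70% of the 111 genes, against 2.20%, 5.35% and 3.36% of all tested genes.

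**Figure D4:**
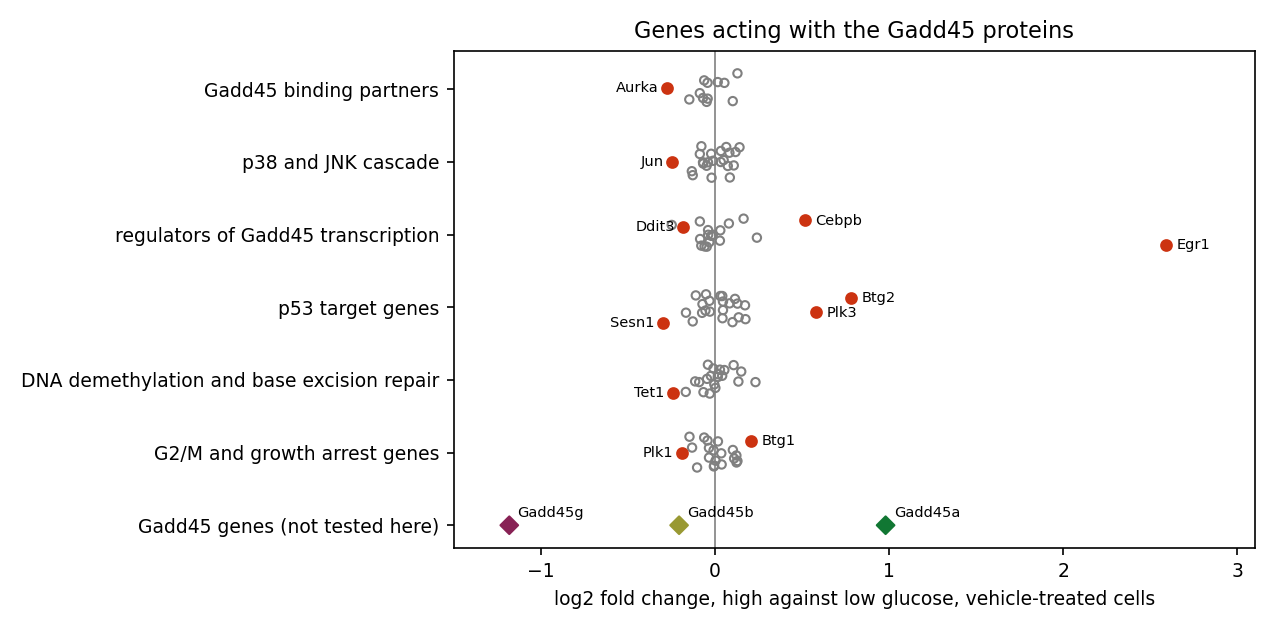
Log2 fold change for high against low glucose in vehicle-treated cells (horizontal axis) of the tested genes in 6 lists (rows, with vertical scatter only to separate points). Filled red points passed an adjusted p of 0.05 by edgeR and are named, open grey points did not, and diamonds are the 3 Gadd45 genes, shown without a test. Most listed genes lie within 0.3 of 0, Egr1 lies at 2.59, and Gadd45a and Gadd45g lie at 0.98 and -1.18.

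Genes whose levels followed each member most closely were found by the Pearson correlation of log2 CPM (counts scaled to library size) over the 12 libraries, among 12308 other tested genes with a mean of at least 50 counts. The libraries fall into the 2 glucose levels, so a high correlation mostly reflects a shared step between them, and no p is given. Gadd45a was followed by Stk35 (0.996), a nuclear serine/threonine kinase, Plk3 (0.994) and Irs2 (0.993), an insulin receptor substrate. Their log2 fold changes with glucose in vehicle-treated cells were 1.08, 0.58 and 1.55. The closest genes to Gadd45g were Neurl1b (0.983), an E3 ubiquitin ligase of the Notch pathway, Zfp668 (0.978), a zinc finger gene, and Rgmb (0.975), a BMP co-receptor. All 3 were lower in high glucose, with log2 fold changes of -0.32, -0.42 and -0.37 with vehicle, which are smaller than that of Gadd45g. The correlations were lower for Gadd45b: 0.832 for Gpc4, a glypican, 0.824 for Tom1 and 0.821 for Gm10461.

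**Figure D5:**
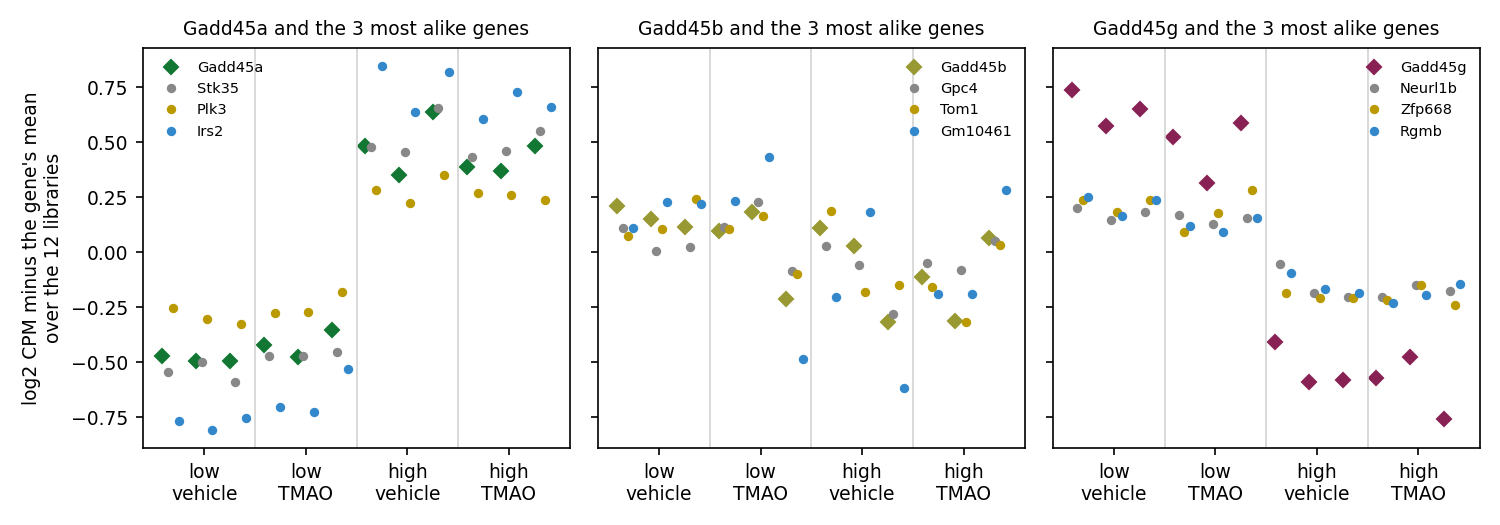
Log2 CPM minus each gene's mean over the 12 libraries (vertical axis) for each Gadd45 gene (diamonds) and the 3 genes with the highest correlation to it (circles), by condition along the horizontal axis, with 3 libraries a condition. Gadd45a and its 3 genes step up, and Gadd45g and its 3 genes step down, between low and high glucose, and Gadd45b and its genes scatter without a step of that size.

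Of the 6 nearest tested genes that do not overlap a member (Gng12 and Gm8566 beside Gadd45a, Lmnb2 and Gng7 beside Gadd45b, and Sema4d and 4921525O09Rik beside Gadd45g), 0 were called for glucose with either treatment by edgeR, and the lowest adjusted p was 0.61. Gng12, 13746 bases from Gadd45a, had a log2 fold change of -0.035 with vehicle, and Sema4d, 52931 bases from Gadd45g, had 0.045. The noncoding gene E230016M11Rik, on the plus strand, shares 859 bases with Gadd45a, which is on the minus strand. These bases lie between the outer bounds of the genes, introns included, and the overlap of their exons was not computed. The kit named in the labels does not mark strand, so fragments from those bases cannot be told apart. Its mean count was 122, that of Gadd45a was 2180.5, and it had a log2 fold change with glucose of 0.28 (adjusted p = 0.597, edgeR). Among markers of other cells, 0 of 3 tested markers of other islet cells and 0 of 2 tested non-endocrine markers were called for glucose by edgeR. Gcg had a log2 fold change of 0.12 with vehicle and 0.11 with TMAO (adjusted p = 0.14 and 0.168, edgeR). Of the 8 beta cell markers Mafa rose with vehicle (0.66, adjusted p = 0.0126) and had 0.43 with TMAO (adjusted p = 0.0917, edgeR). The call for Mafa was lost without low glucose vehicle replicate 2 or 3 or high glucose vehicle replicate 3. Over the other settings, 1 or 2 beta cell markers were called with vehicle and 0 or 1 with TMAO. Their part in the Gadd45 values was not tested.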

How the data were processed

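RNA of 12 MIN6 cultures, 3 in each of 4 conditions, was sequenced. The authors deposited counts, the number of fragments per gene with no normalization, and FPKM values, in which the deposited counts are scaled to gene length and to a total that differs from each library's summed counts by at most 1.37%. The submitters' processing notes name HISAT2 2.0.5, featureCounts 1.5.0-p3, DESeq2 1.16.1 and mm10, and the counting of strand is not given in the sources used here. Groups and replicate numbers came from the sample titles.

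Levels are FPKM. Differences were fitted to the counts of all 12 libraries in edgeR 4.0.16 (R 4.3.3): genes passing filterByExpr, TMM scaling, robust dispersions and the quasi-likelihood F test on 4 condition means, with Benjamini-Hochberg adjustment over 16222 genes. The standard error is the log2 fold change divided by the square root of F. The steps were tested on simulated counts. Replicates differed by more than sampling noise, with a chi-square per gene of at least 2.44.

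The members and lists were chosen with earlier results of these data known. The members were named throughout, with the 3 largest rises and falls per list past an adjusted p of 0.05 for glucose in vehicle-treated cells, listed genes called for TMAO, the 3 most alike genes per member, and neighbours. Ppm1d, Tet2 and the listed genes that did not pass were added after their values were seen. Alternatives were DESeq2 1.42.0, limma 3.58.1 (log2 FPKM with a pseudocount of 1 or 0.1), other filters and scalings, fewer libraries and a replicate block. Figures were drawn with matplotlib 3.10.9.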

Additional observations from a re-analysis of the deposited data

How the results depend on the processing

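Over 141 alternatives to the 9 tests of a member for TMAO or the interaction, 0 were called, with a lowest adjusted p of 0.505, and 135 had the sign of the reported value. The other 6 each left out 1 library. The log2 fold change with TMAO in high glucose ranged over left-out libraries from -0.14 to 0.0028 for Gadd45g, turning positive without high glucose TMAO replicate 3. For Gadd45b it ranged from -0.19 to 0.026, positive without high glucose TMAO replicate 2 and without high glucose vehicle replicate 1 (0.0094), and its interaction ranged from -0.062 to 0.15, negative without low glucose TMAO, high glucose vehicle or high glucose TMAO replicate 3. Without changing sign, others moved by over 1.5 times: Gadd45a with TMAO in high glucose from -0.15 (without high glucose vehicle replicate 2) to -0.0034 (without replicate 3), with its interaction from -0.22 to -0.072 without the same libraries. In low glucose, Gadd45g ranged from -0.23 to -0.10 (without low glucose TMAO replicate 2), Gadd45a from 0.036 (without low glucose TMAO replicate 3) to 0.098 and Gadd45b from -0.21 (without low glucose TMAO replicate 2) to -0.019 (without replicate 3), and the interaction of Gadd45g ranged from 0.033 (without low glucose TMAO replicate 2) to 0.18. The glucose values kept their sign, from -1.24 to -1.14 for Gadd45g and from 0.90 to 1.05 for Gadd45a with vehicle. Those of Gadd45b ranged from -0.29 to -0.095 (without high glucose vehicle replicate 3) with vehicle and, with TMAO, from -0.27 (without low glucose TMAO replicate 3) to -0.055 (without high glucose TMAO replicate 2).

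Counts of called genes moved more. For TMAO in low glucose (1 gene) the count was 7 when all genes were kept, 3 with only the libraries of the comparison, 0 with limma on log2(FPKM + 1) and 0 with log2(FPKM + 0.1), and 0 to 1 over left-out libraries (0 without low glucose TMAO replicate 2). For TMAO in high glucose (0) it was 13 when all genes were kept, 1 with DESeq2's Wald test, 3 with only its libraries, and 0 to 1 over left-out libraries (1 without high glucose vehicle replicate 1). For the interaction (0) it was 6 when all genes were kept and 0 to 2 over left-out libraries (2 without high glucose TMAO replicate 1). For glucose it ranged over left-out libraries from 328 (without high glucose vehicle replicate 3) to 475 with vehicle (536), also falling to 341 without low glucose vehicle replicate 2. With TMAO (591) it ranged from 344 (without high glucose TMAO replicate 3) to 657, with 365 without low glucose TMAO replicate 1, and was 347 and 337 with limma on log2(FPKM + 1) and log2(FPKM + 0.1). The causes were not tested. Counts per list, an alternative added once the data were known, were recomputed too: 201 of 252 stayed within 1.5 times and 51 moved further, from counts of at most 4.

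The labels do not say that a replicate number marks a shared batch or day, and libraries were not treated as paired, because the deviations of same-numbered libraries from the condition means correlated over 0.1 in 2 of 18 pairs only (-0.038 to 0.21). Of 36 pairs with different numbers 0 did, and 9 of 12 libraries correlated best with their own number, a hint from the data that leaves shared variation possible. With a replicate block, 717 genes were called for glucose with vehicle and 783 with TMAO, the glucose values were -1.18 for Gadd45g and 0.98 for Gadd45a with vehicle, and no member was called for TMAO. Depth limits Gadd45b, at 73 to 119 counts per library, more than the other members.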
